A study of Mus musculus with 6 samples.

Results

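The FOXO factor genes Foxo1 and Foxo3, the recombination genes Rag1, Rag2 and Dntt, and 4 genes that FOXO proteins activate (Il7r, Klf2, Ccng2 and Cited2) were followed in leukaemic mouse pre-B cells given Cre recombinase or a control construct. Members were all probe sets that carry exactly 1 gene symbol equal to one of these 9 names. All 9 genes were on the array, with 1 probe set each, out of 19938 genes with a single symbol. All 9 passed the filter on dim genes and were tested. The cells were C57BL/6 pre-B cells made leukaemic by BCR-ABL1, an always-active kinase fusion found in Ph+ acute lymphoblastic leukaemia (Ph+ ALL), and both groups were Inpp5d fl/fl. Inpp5d encodes SHIP1, a phosphatase that removes the 5-phosphate of the PI3K product PIP3. The control group (3 arrays) was transduced with PMIP-ERT2 and the other group (3 arrays) with PMIP-CRE-ERT2, in which Cre is switched on by tamoxifen. Both groups received 4OH-Tamoxifen at 0.5 µM for 2 days, and RNA came from puromycin-resistant cells. The comparison asks how the 9 transcripts differed between cells with Cre and cells with the control construct. Cre was not tried in cells lacking floxed alleles. The labels do not state that replicate arrays are separate cultures, so each p-value reflects the spread among these arrays alone, which may be technical.

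FOXO proteins are forkhead transcription factors held in the cytoplasm when AKT, a kinase recruited by PIP3, phosphorylates them. In B cell precursors, FOXO1 is known to drive Il7r in early progenitors and Rag1 and Rag2 during recombination of the immunoglobulin genes. RAG1 and RAG2 together form the recombinase that cuts at recombination signal sequences, and terminal transferase, the product of Dntt, adds untemplated nucleotides at the joins. FOXO activity is governed largely by protein location and phosphorylation, which arrays of RNA do not measure.

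Inpp5d itself was higher on every Cre-ERT2 array (log2 value 13.35 ± 0.013, SD, n = 3, against 13.19 ± 0.020, SD, n = 3), a difference of 0.16 that missed the threshold of limma's test (adjusted p = 0.0545) but passed in 5 of 9 alternatives that kept all arrays (adjusted p from 0.00364 to 0.595, the highest after median centring). The sources used here do not say whether its probe set covers the deleted exons, so groups are called by their labels and every direction is that of the labels. The array Cre-ERT2 3 correlated more closely with ERT2 arrays 3 and 1 (Pearson's r across probe sets 0.9967 and 0.9963) than with Cre-ERT2 arrays 1 and 2 (0.9938 and 0.9950). Of the pre-B cell markers, 9 were measured and their mean log2 value lay between 13.12 and 13.17 on all 6 arrays. T cell markers were dim: 4 of 10 (Cd3d, Cd3g, Cd8b1 and Cd28) lay below the filter. Their mean log2 value was 7.53 to 7.56 in the controls and 7.64 to 7.79 in the Cre-ERT2 arrays. Of the myeloid markers 6 of 11 were below the filter, with means of 7.49 to 7.54 and 7.69 to 7.77. The 6 stromal markers had means of 8.23 to 8.31 and 8.34 to 8.53 and none passed limma's adjusted test (4 at an unadjusted p under 0.05, all higher). Over all genes tested, 33.4% passed at that unadjusted threshold, 19% being higher. Dim genes were higher in general: with tested genes split into 10 bins from dimmest to brightest, the median log2 difference was 0.11, 0.12, 0.12 and 0.088 in bins 1 to 4, which held 5 of the 6 tested T cell markers and 4 of the 5 tested myeloid ones. Of the tested markers, 2 for T cells (Zap70 and Cd5) and 3 for myeloid cells (Lyz2, Cebpa and Cebpe) rose by limma's adjusted test, and the mature B cell marker Cxcr5 fell by 0.29 (-0.29, adjusted p = 0.0487), the other 3 of its list being below the filter. By the same test, 3.5% of all genes tested rose and 4.13% fell. After median centring Zap70 (adjusted p = 0.210), Cd5 (0.237), Cebpa (0.0793) and Cebpe (0.304) did not pass, while Lyz2 and Cxcr5 did. With an array left out, Lyz2 passed in 6 of 6 fits and Zap70 in 0 (adjusted p from 0.0521 to 0.124). Cxcr5 and Cebpe passed only without Cre-ERT2 array 3 (0.0195 and 0.0338), and Cd5 and Cebpa only without Cre-ERT2 array 2 (0.0328 and 0.0489) or 3 (0.0331 and 0.0189). The part of these markers in the results for the 9 genes, several of which T cells or their precursors also express, was not tested. In bulk RNA, fewer cells of a type and less RNA per cell cannot be told apart.

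The start regions of the 4 genes that differed, and of Rag1 as the partner of Rag2, are shown because FOXO proteins act by binding DNA and the members did not move together. Each is the 250 bases before a RefSeq transcript start in build GRCm38.p6, 5′ to 3′ on the strand of the gene: chr2:101624462-101624711 on the plus strand for Rag2, chr2:101649533-101649782 on the minus strand for Rag1, chr5:93267323-93267572 (plus) for Ccng2, chr10:17722978-17723227 (plus) for Cited2 and chr19:41029025-41029274 (plus) for Dntt. Capitals mark the motifs searched on both strands: the FOXO core GTAAACA, the insulin response element core CAAAACA, the shorter forkhead core TAAACA (which is part of GTAAACA) and the E-box CAGGTG that E proteins bind.
Rag2: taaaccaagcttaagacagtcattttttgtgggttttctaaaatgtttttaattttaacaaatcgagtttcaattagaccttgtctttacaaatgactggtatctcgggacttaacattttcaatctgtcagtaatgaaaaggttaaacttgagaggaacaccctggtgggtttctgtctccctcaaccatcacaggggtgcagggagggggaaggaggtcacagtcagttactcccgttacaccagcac
Rag1: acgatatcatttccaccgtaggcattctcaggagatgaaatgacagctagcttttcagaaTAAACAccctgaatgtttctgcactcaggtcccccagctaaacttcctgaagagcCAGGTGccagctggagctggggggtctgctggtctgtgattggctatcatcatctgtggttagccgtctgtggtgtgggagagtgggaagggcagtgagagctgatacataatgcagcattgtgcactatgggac
Ccng2: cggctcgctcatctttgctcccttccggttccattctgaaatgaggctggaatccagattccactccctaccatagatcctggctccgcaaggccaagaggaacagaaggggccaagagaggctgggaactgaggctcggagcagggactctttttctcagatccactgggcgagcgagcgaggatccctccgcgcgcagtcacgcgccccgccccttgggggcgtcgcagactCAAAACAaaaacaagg
Cited2: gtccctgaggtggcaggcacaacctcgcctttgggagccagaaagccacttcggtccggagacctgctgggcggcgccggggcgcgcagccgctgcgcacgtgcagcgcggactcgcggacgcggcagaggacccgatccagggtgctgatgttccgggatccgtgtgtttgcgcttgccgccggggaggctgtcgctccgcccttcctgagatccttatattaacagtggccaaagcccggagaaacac
Dntt: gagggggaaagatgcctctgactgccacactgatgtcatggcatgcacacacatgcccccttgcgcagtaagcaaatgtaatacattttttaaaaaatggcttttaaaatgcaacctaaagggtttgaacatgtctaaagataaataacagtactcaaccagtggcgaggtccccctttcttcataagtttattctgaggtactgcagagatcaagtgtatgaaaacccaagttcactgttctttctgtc
Windows were found for all 9 genes. The FOXO core GTAAACA was in 0 of the 9 windows and in 3.17% of 32851 windows of this length in the RefSeq table. CAAAACA was in the Ccng2 window alone among the 9, beginning 16 bases before the start, and in 5.56% of all windows. TAAACA and CAGGTG were each in the Rag1 window alone, beginning 190 and 135 bases before the start, and in 12.0% and 17.2% of all windows. The Rag2 window, with 41.2% G and C, held none of the 4 motifs, and the median of all windows was 52.4%. A match is a description of letters and not a measured binding site, and distant enhancers, such as those of the Rag locus, lie outside these windows.

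Of the 9 genes, 4 differed between the groups at a limma adjusted p under 0.05, against 7.62% of the 14953 genes tested. Rag2, Cited2 and Ccng2 fell (4.13% of genes tested fell) and Dntt rose (3.5% rose). Foxo1, Foxo3, Rag1, Il7r and Klf2 did not pass. The arrays of the groups did not overlap for 6 of the 9 genes, against 38.5% of genes tested. The median log2 difference of the 9 genes was -0.038, against 0.026 over all genes tested.

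**Figure D1:**
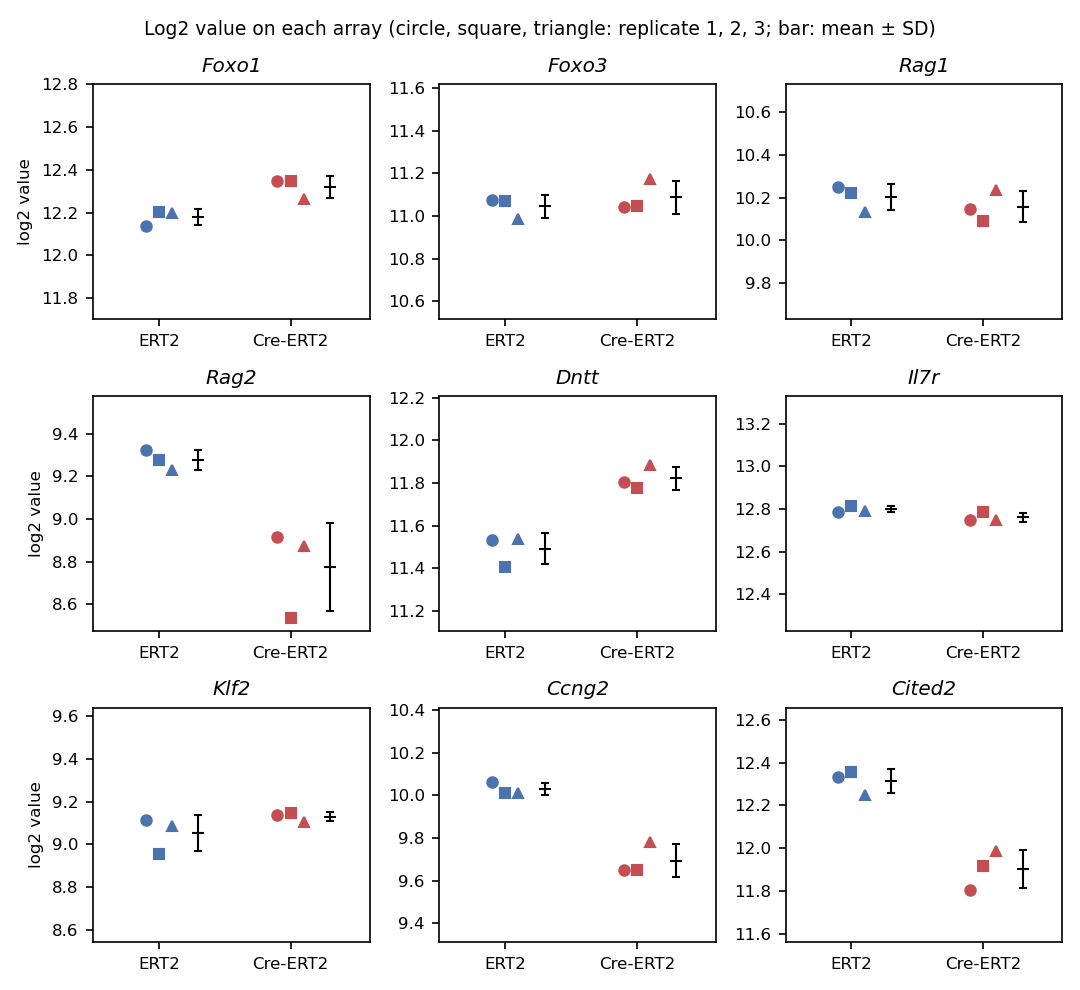
Log2 value of each of the 9 genes (vertical axis, the same span of log2 units in every panel) on the 3 ERT2 control arrays (blue) and the 3 Cre-ERT2 arrays (red), with the mean ± SD of each group as a black bar. Rag2, Ccng2 and Cited2 lie lower and Dntt higher on every Cre-ERT2 array, whereas the groups overlap for Rag1, Foxo3 and Klf2.

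Foxo1, the FOXO factor best known for its part in B cell development (probe set 10491962, Entrez gene 56458, chromosome 3), had log2 values of 12.14, 12.21 and 12.20 in ERT2 arrays 1, 2 and 3 and 12.35, 12.35 and 12.26 in Cre-ERT2 arrays 1, 2 and 3. The Cre-ERT2 arrays were all above the controls, by 0.057 at the nearest pair. Foxo1 differed by 0.14 ± 0.047 log2 units (SE; 95% interval 0.031 to 0.25), which missed the threshold of limma's test (adjusted p = 0.0910). It passed with array weights (adjusted p = 0.0284) and with a trended, robust variance model (adjusted p = 0.0294), and shrank to 0.037 when each array was centred on its median (adjusted p = 0.732).

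Foxo3 (probe set 10368888, Entrez gene 56484, chromosome 10), a FOXO factor expressed in many tissues, gave 11.08, 11.07 and 10.98 in the controls and 11.04, 11.04 and 11.17 in the Cre-ERT2 arrays. The groups overlapped, and Cre-ERT2 array 3 was the highest of the 6. Its difference of 0.042 had a 95% interval from -0.083 to 0.17 (limma adjusted p = 0.593), and its sign turned after median centring (-0.060) and without Cre-ERT2 array 3 (-0.0014). Taken within each array, the change of Foxo1 exceeded that of Foxo3 by 0.097 on the log2 scale, with overlapping groups (exact two-sided permutation p = 0.30, where 0.10 is the smallest that 3 against 3 arrays allow).

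Rag2, which encodes the recombinase subunit that reads methylated histone H3, had the largest difference of the 9 genes with all arrays in the fit, though not without Cre-ERT2 array 2 (-0.38, against -0.42 for Cited2). Its log2 values (probe set 10474105, Entrez gene 19374) were 9.32, 9.28 and 9.23 in the ERT2 arrays and 8.91, 8.54 and 8.87 in the Cre-ERT2 arrays. All Cre-ERT2 arrays lay below all controls by at least 0.31, and Cre-ERT2 array 2 was lower than the other two. Rag2 was 1.42-fold lower, with a log2 difference of -0.50 ± 0.094 (SE) and a 95% interval from -0.72 to -0.29 (limma adjusted p = 0.0249). The Cre-ERT2 group varied more than the controls (SD 0.21 against 0.047, n = 3 each). The call was lost without ERT2 array 1 (adjusted p = 0.114), 2 (0.0921) or 3 (0.0549) and without Cre-ERT2 array 1 (0.0542). The difference ranged from -0.57 to -0.38 over the 6 fits with an array left out, -0.38 being without Cre-ERT2 array 2.

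Rag1, which encodes the catalytic subunit (probe set 10485372, Entrez gene 19373), had log2 values of 10.25, 10.22 and 10.13 in the controls and 10.15, 10.09 and 10.24 in the Cre-ERT2 arrays. The groups overlapped. Its difference was -0.043 ± 0.055 (SE), with a 95% interval from -0.17 to 0.084 (limma adjusted p = 0.591), and -0.15 after median centring (adjusted p = 0.181). The 95% intervals of Rag1 and Rag2 did not overlap, that of Rag2 ending at -0.29. Within each array the change of Rag2 was 0.46 log2 units below that of Rag1 (-0.46), and the arrays of the groups did not overlap on this measure, which is unaffected by scaling of whole arrays. The exact two-sided permutation p was 0.10, the smallest this test can give with 3 against 3 arrays, and 0.20 after Benjamini-Hochberg adjustment over the 2 pairs compared (Rag2 with Rag1, Foxo1 with Foxo3).

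Rag1 and Rag2 lie next to each other on chromosome 2, so the protein-coding genes beside them in the RefSeq gene order were read as well. They were chosen after the values were seen. Of the 3 on either side, Iftap, Lrrc4c and Prr5l were below the filter on dim genes, with mean log2 values under 7.35 and overlapping groups. Traf6, which encodes a signalling ubiquitin ligase and sits on the Rag1 side, had a log2 difference of -0.12 (adjusted p = 0.226), Commd9 of -0.070 (0.417) and Api5 of -0.051 (0.478). None of these 3 tested neighbours passed limma's test, and the unadjusted p was 0.105 for Traf6, 0.271 for Commd9 and 0.334 for Api5.

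Dntt, which encodes terminal transferase (probe set 10463123, Entrez gene 21673, chromosome 19), moved opposite to Rag2. Its log2 values were 11.53, 11.41 and 11.54 in the controls and 11.81, 11.78 and 11.88 in the Cre-ERT2 arrays. All Cre-ERT2 arrays were higher, by at least 0.24. Dntt was 1.26-fold higher, with a log2 difference of 0.33 ± 0.054 (SE) and a 95% interval from 0.20 to 0.45 (limma adjusted p = 0.0176). The call was lost without ERT2 array 1 (adjusted p = 0.0771) or 2 (0.0644) and without Cre-ERT2 array 1 (0.0684), with differences from 0.29 to 0.35 in the 6 such fits.

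Cited2, which encodes a transcriptional co-regulator that competes for the CBP and p300 coactivators and is known as a FOXO-induced gene, had the smallest p of the 9. Its log2 values (probe set 10361828, Entrez gene 17684, chromosome 10) were 12.33, 12.36 and 12.25 in the controls and 11.81, 11.92 and 11.99 in the Cre-ERT2 arrays. The groups were separated by 0.27. Cited2 was 1.33-fold lower, with a log2 difference of -0.41 ± 0.059 (SE) and a 95% interval from -0.55 to -0.28 (limma adjusted p = 0.00972). Its difference ranged from -0.45 to -0.36 with an array left out, and the call was lost without ERT2 array 1 (adjusted p = 0.0627) or 2 (0.0537).

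Ccng2 encodes cyclin G2, an atypical cyclin linked to cell cycle arrest and a classical FOXO target. Its log2 values (probe set 10523297, Entrez gene 12452, chromosome 5) were 10.06, 10.01 and 10.01 in the controls and 9.65, 9.65 and 9.78 in the Cre-ERT2 arrays. Cre-ERT2 array 3 was nearest to the controls but still 0.23 below the lowest of them. Ccng2 was 1.26-fold lower, with a log2 difference of -0.33 ± 0.052 (SE) and a 95% interval from -0.45 to -0.21 (limma adjusted p = 0.0146). The call was lost without ERT2 array 1 (adjusted p = 0.0878) or 2 (0.0582) and without Cre-ERT2 array 1 (0.0662), with differences between -0.38 and -0.31 in the 6 such fits.

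Il7r, which encodes the receptor subunit through which IL-7 supports B cell precursors (probe set 10427628, Entrez gene 16197, chromosome 15), did not pass. It had log2 values of 12.79, 12.81 and 12.79 in the controls and 12.75, 12.78 and 12.75 in the Cre-ERT2 arrays. The Cre-ERT2 arrays were all lower, but the nearest pair was only 0.0040 apart. The difference of -0.038 had a 95% interval from -0.13 to 0.057 (limma adjusted p = 0.528), and it was -0.14 after median centring (adjusted p = 0.153).

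Klf2, which encodes a factor of lymphocyte quiescence and trafficking (probe set 10572800, Entrez gene 16598, chromosome 8), had log2 values of 9.11, 8.96 and 9.09 in the controls and 9.14, 9.15 and 9.11 in the Cre-ERT2 arrays. The groups overlapped, and ERT2 array 2 was the lowest of the 6. Its difference of 0.078 had a 95% interval from -0.044 to 0.20 (limma adjusted p = 0.317) and turned to -0.025 after median centring. Il7r, Klf2, Ccng2 and Cited2 thus split into 2 that fell and 2 that did not pass. Rag1 and Rag2, which FOXO1 is also known to drive, split as well, with Rag2 lower and Rag1 not passing.

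**Figure D2:**
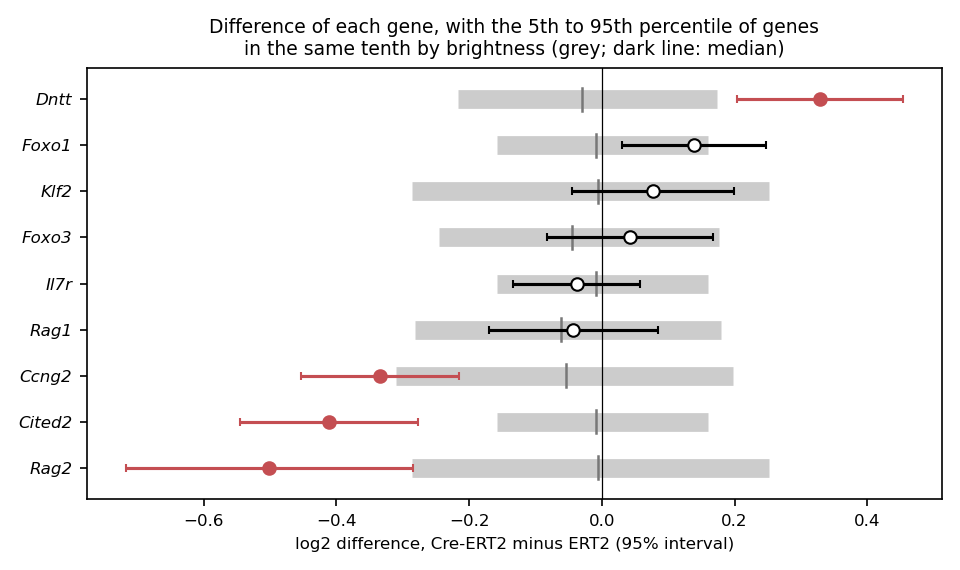
Log2 difference of each gene, Cre-ERT2 minus ERT2, with its 95% interval (red and filled where the limma adjusted p is under 0.05), over the 5th to 95th percentile (grey bar) and median (dark line) of the differences of all tested genes in the same decile bin of brightness. Rag2 (-0.50), Cited2 (-0.41), Ccng2 (-0.33) and Dntt (0.33) lie beyond the grey bars, while Foxo1 (0.14) and the other 4 genes lie within them.

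Differences in this series were tied to brightness, so each gene was set beside genes of similar level. In the same 10 bins, Rag2 and Klf2 were in bin 5, where the median log2 difference was -0.0056 and the range from the 5th to the 95th percentile was -0.29 to 0.25. Bin 6, with Ccng2, had a median of -0.053 and a range from -0.31 to 0.20. In bin 9, with Dntt, the range was -0.22 to 0.17, and in bin 10, with Foxo1, Il7r and Cited2, it was -0.16 to 0.16. The share of genes called in these 4 bins was 8.90%, 11.6%, 8.56% and 4.95%. Rag2, Ccng2, Cited2 and Dntt therefore lay outside the central range of genes of like brightness, Ccng2 by the least. Foxo1 (0.14) lay inside it. Median centring lowered the median difference of all genes by 0.10 (-0.10), turned the share of called genes that were higher from 45.9% to 7.38%, and left Rag2 (-0.60), Ccng2 (-0.44), Cited2 (-0.51) and Dntt (0.23) past the threshold in the same directions.

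**Figure D3:**
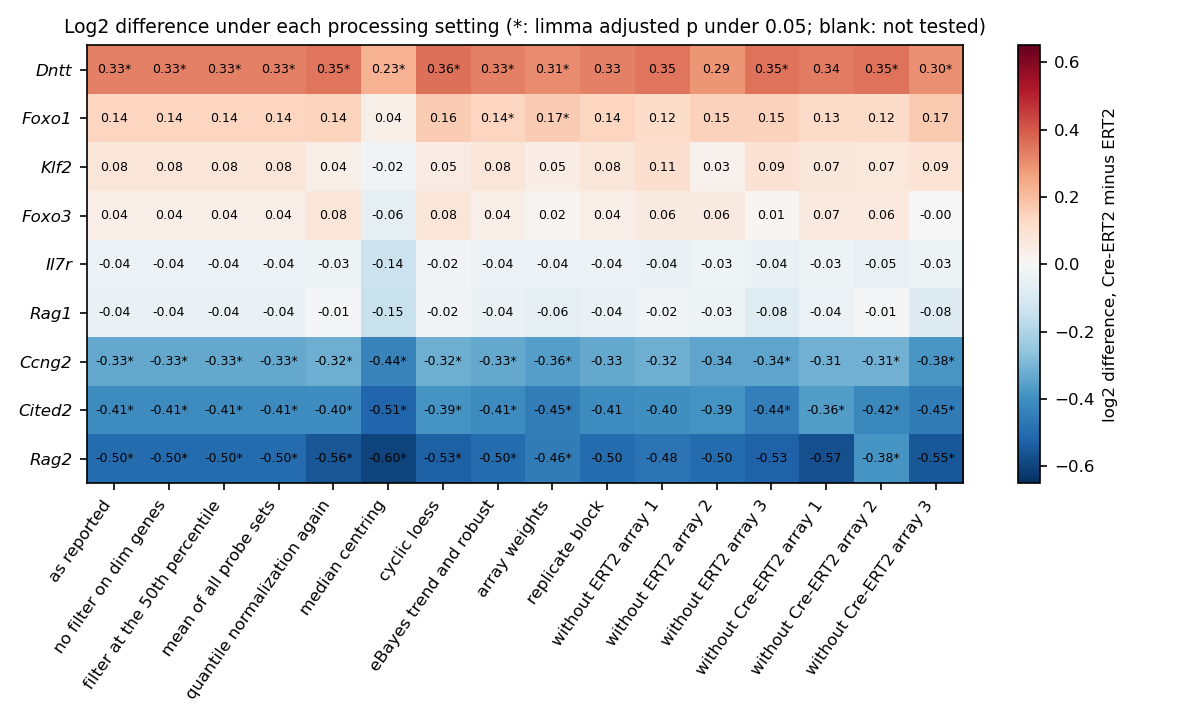
Log2 difference, Cre-ERT2 minus ERT2, of each of the 9 genes (rows) under each processing setting and with each array left out (columns), as colour and number, with an asterisk where the limma adjusted p is under 0.05. Rag2, Cited2 and Ccng2 stay negative and Dntt positive in all 16 columns, though only the columns with rescaled arrays could have turned these signs. The asterisks of all 4 disappear with the replicate number as a block and without ERT2 array 1 or 2.

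Of 25 tested other genes that FOXO proteins activate, 1 was lower, 0 were higher and 24 did not pass limma's adjusted test. The background for this and each later list was the 7.62% of all genes tested that passed this test in the fit reported. Counts after median centring have another background: 3020 of 14953 genes passed there, 223 higher and 2797 lower. At an unadjusted p under 0.05, 5 were higher and 1 was lower; over all genes tested this threshold was passed by 33.4% (19.0% higher and 14.4% lower). The one that fell was Bnip3, a mitophagy receptor gene that hypoxia also induces, at -0.32 ± 0.058 (SE, adjusted p = 0.0237). Next by p, and not passing, were Bcl2l11, which encodes the death-inducing protein BIM (0.16, adjusted p = 0.0522), the stress sensor gene Sesn3 (0.17, adjusted p = 0.0743) and the receptor gene Igf1r (0.28, adjusted p = 0.0919). In all, 20 of 25 had a positive difference, against 56.6% of all genes tested, and the list median was 0.083. After median centring the list median was -0.020. The call of Bnip3 was lost without ERT2 array 1 (adjusted p = 0.108) or 2 (0.0857) and without Cre-ERT2 array 1 (0.0672).

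Of 19 tested genes for joining and DNA end repair, 1 was lower, 0 were higher and 18 did not pass, with a list median of -0.077. After median centring 6 were lower and 0 higher, with a median of -0.18, while 2797 of all 14953 genes tested were lower. Xrcc5, which encodes the KU80 subunit that holds broken ends, fell by 0.25 ± 0.061 (SE, limma adjusted p = 0.0474), a call that held only without Cre-ERT2 array 3 (adjusted p = 0.0308) among the 6 fits with an array left out, the highest value being 0.179 without ERT2 array 1. Nbn and Mre11a, of the complex that senses breaks, had differences of -0.28 (adjusted p = 0.0596; -0.024 and 0.731 for the mean of its 2 probe sets) and -0.17 (0.0877), and Prkdc, which encodes the catalytic subunit of DNA-PK, had 0.26 (0.0853). The related polymerase genes Poll and Polm had -0.14 and -0.077 (adjusted p = 0.155 and 0.299). At an unadjusted p under 0.05, 3 were lower and 1 was higher (of all genes, 33.4%).

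RAG2 protein is destroyed as cells enter S phase, after phosphorylation by CDK2 with cyclin A and capture by the SKP2 ubiquitin ligase. Of the 6 genes of this step, Cdk2 fell by 0.20 ± 0.043 (SE, limma adjusted p = 0.0347), 0 rose and 5 did not pass. Skp1 and Cks1b, which encode partners of SKP2, had -0.14 (adjusted p = 0.0926) and -0.13 (0.112), lower on every Cre-ERT2 array than on any control. Such separation was common: the groups did not overlap for 38.5% of all genes tested, 17.7% being lower. Skp2 (0.0071), Ccna2 (0.045) and Cul1 (-0.031) were closer to 0, and the sign of Ccna2 turned after median centring (-0.057), where Skp1 (adjusted p = 0.0206) and Cks1b (0.0317) passed as lower along with Cdk2. Under that centring 2797 of all 14953 genes tested passed as lower. With an array left out, Cdk2 passed only without Cre-ERT2 array 3 (adjusted p = 0.0261) and reached 0.150 without ERT2 array 1.

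Among 21 tested factors, other than FOXO, that act on the Rag locus or lymphoid gene expression there, 2 were higher, 0 lower and 19 did not pass. Bach2, which encodes a transcriptional repressor present in B cell precursors, rose by 0.27 ± 0.055 (SE, limma adjusted p = 0.0321), and the Ikaros family gene Ikzf3 by 0.19 ± 0.047 (adjusted p = 0.0483). With an array left out, each passed only without Cre-ERT2 array 3 (adjusted p = 0.0195 for Bach2 and 0.0425 for Ikzf3), and reached 0.144 and 0.190 without ERT2 array 1. Runx1 had a difference of 0.19 (adjusted p = 0.0512) and Satb1, which encodes a chromatin organizer, -0.28 (adjusted p = 0.0550). Foxp1, another forkhead gene, had 0.15 (adjusted p = 0.0685), and Pax5 was level at -0.0021 (adjusted p = 0.979). The list median was 0.080, and -0.023 after median centring, where 0 were higher and 1 was lower and neither Bach2 (0.16, adjusted p = 0.0863) nor Ikzf3 (0.086, 0.412) passed.

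No gene upstream of FOXO passed. Of 20 tested regulators, among them AKT and SGK kinases, 14-3-3 proteins and coactivators, 0 were higher and 0 lower by limma's adjusted test, and at an unadjusted p under 0.05, 3 were higher and 2 lower (of all genes, 33.4%). The nearest were the coactivator gene Ep300 (0.16, adjusted p = 0.0729), the ubiquitin ligase gene Mdm2 (0.20, 0.0738), the coactivator gene Crebbp (0.15, 0.0830) and the deacetylase gene Sirt1 (-0.16, 0.0886). Akt1 had a difference of -0.076 and Akt2 of -0.14 (adjusted p = 0.322 and 0.0894). After median centring the list held 3 lower calls and 0 higher, beside 2797 lower and 223 higher among all 14953 genes tested. It held 3 higher and 2 lower with trend and robust estimation and also with array weights. In those 2 settings 2147 and 3993 of all 14953 genes passed. With the 50th percentile filter it held 1 higher and 0 lower, and 1563 of 9969 genes passed.

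Of 4 tested partners of the IL-7 receptor (Crlf2, Jak1, Stat5a and Stat5b), 0 passed by limma's adjusted test and 0 at an unadjusted p under 0.05, with differences from -0.058 for Crlf2 to 0.057 for Jak1. Of 4 trafficking genes linked to KLF2, the activation marker gene Cd69 rose by 0.22 ± 0.047 (SE, adjusted p = 0.0344) and 3 did not pass, S1pr1 at 0.035, Ccr7 at 0.053 and Itgb7 at 0.019, all 3 of which turned negative after median centring. Cd69 did not pass after that centring (0.12, adjusted p = 0.230). With an array left out, it passed only without Cre-ERT2 array 3 (adjusted p = 0.0295). Of 11 close relatives of the 9 genes, 0 passed by limma's adjusted test, and 3 were higher and 0 lower at an unadjusted p under 0.05 (of all genes, 33.4%). Smallest by p were Cited4, of the family of Cited2 (0.20, adjusted p = 0.0840), and the relatives of Klf2, Klf3 (0.16, 0.110), Klf13 (0.12, 0.131) and Klf6 (-0.15, 0.152). After median centring 2 relatives passed as lower and 0 as higher, as did 2797 and 223 of all 14953 genes tested. Foxo4, the other broadly expressed FOXO gene, had a difference of -0.047 (adjusted p = 0.470), and Ccng1, the relative of Ccng2, 0.018 (adjusted p = 0.773).

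**Figure D4:**
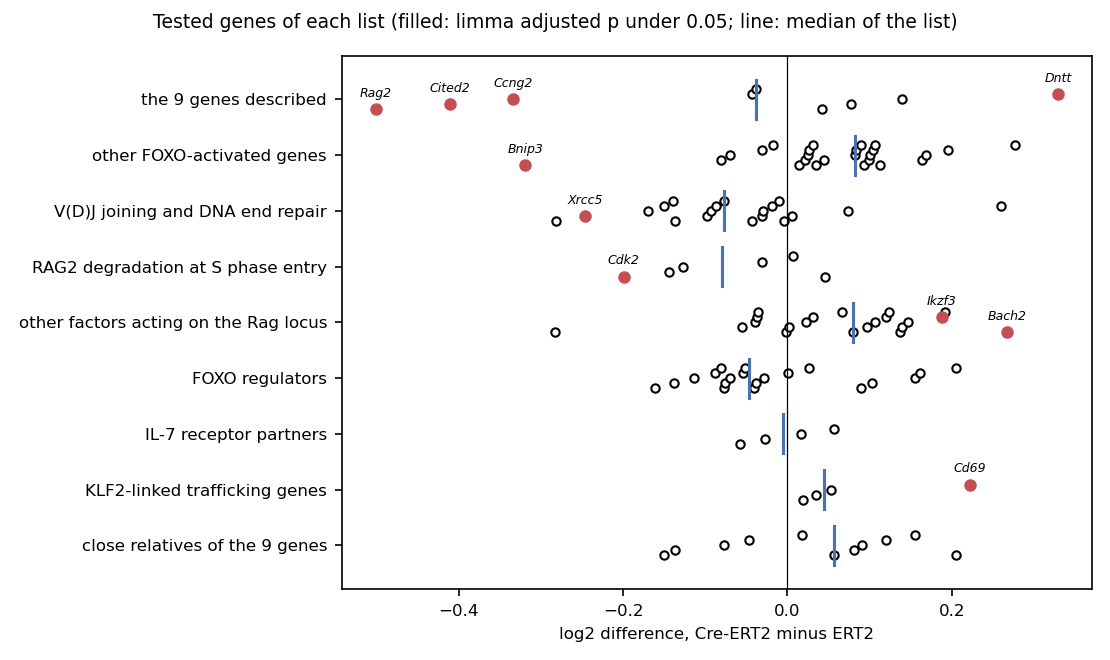
Log2 difference, Cre-ERT2 minus ERT2, of every tested gene in the 9 described genes and in 8 related lists, with filled red points where the limma adjusted p is under 0.05 and a blue line at the median of each list. Besides the 4 members, 6 genes are filled: Bnip3, Xrcc5 and Cdk2 below 0, and Ikzf3, Bach2 and Cd69 above 0.

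Profiles over the 6 arrays were compared by the root mean square difference of log2 values, each gene centred on its own mean. Genes with clone, predicted, microRNA or small nucleolar RNA names were left out of this search. The profile of Ccng2 was most like that of Atad3a (difference 0.0072 log2 units), then Sc5d (0.021) and Tmod3 (0.023). Cited2 was nearest to Il4ra (0.033), Fads3 (0.036) and Fdft1 (0.037), and Rag2 to Cenph (0.037), Timm8a1 (0.045) and Lhfpl1 (0.050). For Dntt the nearest were Gng12 (0.024), Kif17 (0.024) and Slc39a4 (0.027), and for Foxo1 they were Srrm2 (0.012), Shld1 (0.014) and Atf7 (0.015). For none of the 9 genes was another of the 9 among the 3 nearest of the genes searched. With only 3 kept from so large a set, this cannot tell whether the 9 genes varied together.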

How the data were processed

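RNA was measured on 6 Affymetrix mouse arrays, 3 per group, grouped and numbered by sample title. The values deposited are log2 expression, 1 for each of 35556 probe sets. The submitters' processing notes name RMA, which corrects background, normalizes and summarizes probes, and Partek 6.5, without settings; no source used here names a genome build. Array values have no count depth; precision is limited by the number of arrays.

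Of the probe sets, 21789 carried 1 symbol in the array's annotation table and 1621 carried several and were not used. The probe set with the highest mean stood for a gene, and 4985 genes with a mean under the 25th percentile (log2 7.35) were left out, leaving 14953. Two-sided tests of Cre-ERT2 minus ERT2 were run with lmFit and eBayes of limma 3.58.1 (R 4.3.3). P-values of all tested genes were adjusted together by Benjamini-Hochberg, with 0.05 as threshold, and intervals are 95%. On simulated data of 14953 genes, with independent noise and no other gene changed, 19% of 100 genes changed by 0.25 and 89% of 100 changed by 0.5 (log2) were recovered, with 10 false calls. In the deposited data 33.4% of genes had an unadjusted p under 0.05 in limma's test. Recovery depends on the share of genes changed, so these rates may not hold for the deposited data. Same-numbered arrays of the groups did not deviate together (correlations of 0.069, -0.17 and -0.40), so the numbers were not taken to pair them. Correlations of arrays with different numbers ran from -0.30 (ERT2 array 1 with Cre-ERT2 array 2) to 0.43 (ERT2 array 3 with Cre-ERT2 array 2).

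The members and lists were chosen with earlier results of these data known. Lists were described by counts and medians, with no set test; 155 of 169 entries were found with 1 symbol and the others are not analysed here. Genes named are the 9 members, Inpp5d, in each list those passing and, where under 4 pass, up to 4 with the smallest p, and the 3 nearest profiles. For marker lists the text keeps to those passing, the T cell markers below the filter, and Ebf1 and Gata1, whose signs turned in an alternative. A few others (Akt1, Akt2, Pax5, Foxp1, Skp2, Poll, Polm, Cul1, Foxo4, Ccng1 and the neighbours of the Rag genes) were added after their values were seen. Alternatives covered the dim-gene filter, probe set averaging, scaling, the variance model, array weights, a replicate block and each array left out. Promoter sequences are from RefSeq, build GRCm38.p6. Tables and figures used Python 3.11.15 with pandas 2.3.3 and matplotlib 3.10.9.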

Additional observations from a re-analysis of the deposited data

How the results depend on the processing

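Rag2, Cited2, Ccng2 and Dntt kept their direction in all 15 alternatives, but only quantile normalization, median centring and cyclic loess could have turned it. The filters, probe set averaging, the variance model and the block left their differences unchanged. Leaving out or weighting arrays cannot turn the sign of genes whose groups do not overlap. Probe set averaging was no test of these genes, each having a single probe set. Their calls held in 8 of the 9 alternatives that kept all arrays. The exception was the replicate number as a block, under which the members called numbered 0 by limma's adjusted test (5 at an unadjusted p under 0.05), the other listed genes called 0 (25 unadjusted) and all genes 147. Of all genes tested, 26.5% passed at that unadjusted threshold under the block. With the block the difference was -0.50 for Rag2 (adjusted p = 0.0601), 0.33 for Dntt (0.0575), -0.33 for Ccng2 (0.0680) and -0.41 for Cited2 (0.0561). With an array left out, members called ranged from 0 to 4, other listed genes called from 0 to 13 and all genes from 115 to 3056 (3056 without Cre-ERT2 array 3). At an unadjusted p under 0.05, 4 or 5 members passed in each of these 6 fits, as did 20.8% to 40.3% of all genes. Differences in these fits ranged from -0.57 to -0.38 for Rag2, -0.38 to -0.31 for Ccng2, -0.45 to -0.36 for Cited2, 0.29 to 0.35 for Dntt and -0.0014 to 0.065 for Foxo3. These fits have fewer residual degrees of freedom.

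The count of all genes called was 437 without the dim-gene filter, 3020 after median centring (223 higher and 2797 lower), 2147 with trend and robust estimation and 3993 with array weights, against 1140. It was 1563 with the 50th percentile filter and 1171 after cyclic loess. For the other listed genes, of which 6 were called, the counts were 1 without the filter, 13 with the 50th percentile filter, 15 after centring (0 higher and 15 lower, against 3 and 3), 10 after cyclic loess, 25 with trend and robust estimation and 24 with array weights. Foxo1 passed with trend and robust estimation (0.14) and array weights (0.17). The causes were not tested.

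Signs turned after median centring for Foxo3 (-0.060), Klf2 (-0.025), Ccna2 (-0.057), Jak1 (-0.046), Stat5a (-0.086), Ccr7 (-0.049), S1pr1 (-0.067), Itgb7 (-0.083) and Ebf1 (-0.023). They turned after quantile normalization for Stat5b (0.014), S1pr1 (-0.0021) and Itgb7 (-0.074), after cyclic loess for Stat5b (0.0078) and Itgb7 (-0.065), and with array weights for Itgb7 (-0.066). With an array left out, Itgb7 ranged from -0.047 to 0.091 and Gata1 from -0.078 to 0.076. None of the genes whose sign turned had passed the test.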
